A study of Mus musculus with 8 samples.

Results

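The Kruppel-like factors examined here were Klf2, Klf3, Klf4, Klf5, Klf6, Klf9, Klf10, Klf11, Klf13 and Klf15, 10 of the 17 KLF genes measured and 10 of the 19938 genes tested. The mice were virgin females of mixed C57BL/6 and FVB background, 5 weeks of age, and their mammary glands were profiled. The glands came from 4 MMTV-Cre;Sox9 flox/flox mice, in which both copies of the transcription factor gene Sox9 are floxed, and 4 MMTV-Cre;Sox9 flox/+ mice, which keep an intact copy. All 8 mice carried MMTV-Cre, a recombinase under a mammary tumour virus promoter that is active mainly in mammary epithelium, so other cell types of the gland can retain Sox9 in both genotypes. The tissue was the piece of the fourth gland next to its lymph nodes, each gland had an Affymetrix Gene 1.0 ST array to itself, and precision is limited by how many arrays there are. Members were chosen by family name with earlier results of these arrays known, and each was read from the brightest probe set that the platform annotation pairs with 1 gene symbol. Each of the 17 KLF genes had 1 such probe set, so brightness decided nothing among them, and all 10 members entered the test, which used no filter on low values.

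KLF proteins are transcription factors with a conserved C-terminal block of C2H2 zinc fingers, which binds GC-rich and CACCC-type DNA, and with diverse N-terminal parts that recruit activators or repressors. Several members are induced within minutes to hours by growth factors, steroid hormones or injury, and several follow the daily clock. In epithelia and fat they are known for setting the balance between proliferation and differentiation. The SP factors, which include SP1, share the same kind of zinc finger block and compete for similar sites.

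The promoter sequences of 5 members are shown because 4 of them are the members with an unadjusted p under 0.05 in the comparison of genotypes below, and the remaining one, Klf15, had the most E-boxes among the members' windows but nearly equal levels in both genotypes. RefSeq promoter windows of assembly GRCm38.p6, 250 bases before to 50 after a start site, were available for 8 of the 10 members, and none was at hand for Klf5 and Klf10. The windows lie at chr7:63938866-63939165, minus strand, for Klf13, at chr4:55532426-55532725, minus strand, for Klf4, at chr19:23140976-23141275, plus strand, for Klf9, at chr13:5861239-5861538, plus strand, for Klf6, and at chr6:90462326-90462625, plus strand, for Klf15. Each is given 5′ to 3′ on the strand of the gene, with the E-box CACGTG and the cyclic AMP core TGACG (or its reverse complement CGTCA) in capitals.
Klf13: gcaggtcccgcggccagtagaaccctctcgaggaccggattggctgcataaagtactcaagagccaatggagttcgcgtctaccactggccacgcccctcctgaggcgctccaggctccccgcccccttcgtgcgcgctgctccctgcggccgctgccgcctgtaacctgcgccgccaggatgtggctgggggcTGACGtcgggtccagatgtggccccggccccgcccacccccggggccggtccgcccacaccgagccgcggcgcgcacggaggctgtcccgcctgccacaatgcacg
Klf4: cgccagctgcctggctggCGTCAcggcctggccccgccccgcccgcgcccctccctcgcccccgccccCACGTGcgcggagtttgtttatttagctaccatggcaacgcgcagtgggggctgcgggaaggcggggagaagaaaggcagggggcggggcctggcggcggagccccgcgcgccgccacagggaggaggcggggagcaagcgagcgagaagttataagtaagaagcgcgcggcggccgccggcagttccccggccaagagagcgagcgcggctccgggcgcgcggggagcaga
Klf9: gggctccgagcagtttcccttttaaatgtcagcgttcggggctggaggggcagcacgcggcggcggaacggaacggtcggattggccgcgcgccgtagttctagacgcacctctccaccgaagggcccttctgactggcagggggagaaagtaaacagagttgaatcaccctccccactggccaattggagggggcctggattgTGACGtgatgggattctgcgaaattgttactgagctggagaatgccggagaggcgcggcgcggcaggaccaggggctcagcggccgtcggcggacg
Klf6: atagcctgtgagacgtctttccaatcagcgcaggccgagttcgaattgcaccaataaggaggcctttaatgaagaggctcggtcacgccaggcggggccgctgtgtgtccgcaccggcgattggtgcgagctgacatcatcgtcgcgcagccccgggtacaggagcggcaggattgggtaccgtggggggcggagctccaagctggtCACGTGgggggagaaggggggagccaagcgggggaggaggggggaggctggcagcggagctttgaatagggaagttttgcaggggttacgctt
Klf15: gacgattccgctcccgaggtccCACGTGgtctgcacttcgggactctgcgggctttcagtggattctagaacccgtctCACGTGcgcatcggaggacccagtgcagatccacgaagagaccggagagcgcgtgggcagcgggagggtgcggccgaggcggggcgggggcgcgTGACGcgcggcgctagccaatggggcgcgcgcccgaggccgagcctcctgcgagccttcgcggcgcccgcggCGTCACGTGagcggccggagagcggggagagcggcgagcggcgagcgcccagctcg
The E-box, the element bound by the clock proteins CLOCK and BMAL1 and by MYC, was present in 4 of the 8 member windows (Klf4, Klf6, Klf11 and Klf15) and in 7.15% of all 32851 promoter windows of the same length. Klf15 held 3 of them, and at the last of the 3 the E-box shares its first bases with a CGTCA match. The cyclic AMP core was present in 6 of 8 member windows and in 20.8% of all windows. The glucocorticoid receptor hexamer TGTTCT (or AGAACA) was in 0 of 8 member windows and in 19.0% of all windows, which says only that these letters are not in these windows. The CACCC box that KLF proteins bind was in 5 of 8 member windows and in 57.5% of all windows, and the GC box GGGCGG in 7 of 8 and in 35.7%; all motifs were searched on both strands. The member windows were rich in G and C, with 63.0 to 77.7% GC against a median of 52.7% over all windows. The motifs differ in GC too, and the shares over all windows were not matched for it. The part of base composition in the motif counts was not tested. Of the 4 members that lay higher in flox/flox glands at an unadjusted p under 0.05, Klf4 and Klf6 hold an E-box and Klf9 and Klf13 do not.

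Across the 10 members, Klf13, Klf4, Klf9 and Klf6 lay higher in the flox/flox glands, by 1.24 to 1.41-fold, and the other 6 differed by less than 1.10-fold in either direction. Intensities are given after an offset of 16, log2 and quantile normalization, turned back to the linear scale; differences are log2 values of flox/flox minus those of flox/+, given with the standard error from limma. At limma's adjusted p under 0.05 over all genes tested, 0 of the 10 members passed, against 0.0401% of all genes (8 genes). At an unadjusted p under 0.05, 4 of the 10 members lay higher, against 4.8% of all genes, and 0 lay lower, against 5.46% of all genes. The median difference was 0.12 over the 10 members, 8 of them positive, and -0.01 over all genes, of which 47.4% were positive. Those 4 members had an unadjusted p under 0.05 in each of the 19 alternative settings tried, and Klf13 passed the adjusted threshold in 4 of the 19. Of the other 7 KLF genes measured, 0 lay higher at that unadjusted level and 1 lay lower. The members were chosen with earlier results of these arrays known, so these counts and medians are a description and not a test of the family.

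Klf13 belongs to the basic transcription element binding group of the family and is known from human T lymphocytes as a late activator of the chemokine gene CCL5. Its intensity (probe set 10564290, chromosome 7) was 350.4, 379, 345 and 324 in flox/flox replicates 1 to 4, against 230.1, 279, 229 and 236 in flox/+ replicates 1 to 4. Every flox/flox gland lay above the highest flox/+ gland, and the flox/+ gland nearest to them was replicate 2. Klf13 was the only member without overlap between the genotypes, 1 of 10, against 5.89% of all genes. The means were 349.7 ± 22.7 in flox/flox glands and 243 ± 23.8 in flox/+ glands (SD, n = 4 each), a difference of 0.50 ± 0.08 (SE, 95% interval 0.32 to 0.67). Ordered by limma p, Klf13 ranked 18 of 19938 genes, and its adjusted p was 0.0840, so the difference did not pass.

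Lymphocyte markers set flox/+ replicate 2 apart. The 16 measured B and T cell markers of 18 listed summed to between 1686 and 1858 in the flox/flox glands, against 1713, 1733 and 1734 in flox/+ replicates 4, 1 and 3 and 6182 in flox/+ replicate 2. None of them averaged under 16, the offset, which is not a limit of detection. Outside flox/+ replicate 2 some were dim, such as Ms4a1 at 22 to 57 and Cd79a at 32 to 70. Without detection calls such values cannot be told from background. Without flox/+ replicate 2 the difference of Klf13 was 0.56 (limma adjusted p = 0.0471), and with the lymphocyte score as a covariate it was 0.55 (adjusted p = 0.0450). Both settings bear on the same gland, since the lymphocyte sum stood apart in flox/+ replicate 2 alone. That gland was also the control nearest to the flox/flox glands in Klf13, so the settings are not separate support. The adjusted p of Klf13 ran from 0.0402 to 0.321 over the 19 alternatives. In a piece of whole gland a change in the number of cells of a type and a change in RNA per cell cannot be told apart.

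Klf4 drives terminal differentiation and barrier formation in skin and gut epithelium and is one of the factors used to reprogram cells to pluripotency. Its intensity was 817, 638, 835 and 581 in flox/flox replicates 1 to 4, against 445, 443, 635 and 515 in flox/+ replicates 1 to 4. The genotypes overlapped because flox/flox replicate 4 lay below flox/+ replicate 3, and 3 of the 4 flox/flox glands lay above all controls. The means were 718 ± 127 in flox/flox glands and 509 ± 90.4 in flox/+ glands (SD, n = 4), a difference of 0.48 ± 0.14 (SE, 95% interval 0.17 to 0.79, limma adjusted p = 0.278). Its spread within genotypes, an SD of 0.25 on the log2 scale, exceeded that of 93.4% of genes.

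Markers of skin and hair keratinocytes, cells in which Klf4 is abundant, had negative differences in 6 of 7, none of which passed the adjusted threshold. The 7 measured keratinocyte markers of 9 listed summed to between 999.6 and 1064 in flox/flox glands, against 1113 to 1213 in flox/+ glands, so the flox/flox sums were the lower ones without overlap. Among them Krt1, a keratin of differentiating epidermis, read 481 ± 14.6 in flox/flox glands and 546 ± 29.1 in flox/+ glands (-0.18 ± 0.06 SE, adjusted p = 0.377). Krt1 was the brightest of the 7 and weighs most in the sum. Of the 7 markers 2, Krt1 and Krt10, did not overlap between genotypes, against 5.89% of all genes. Others were dim, such as Krt25 at 34 to 46 in flox/flox glands and 38 to 47 in flox/+ glands. Without detection calls such values cannot be told from background. Luminal epithelial markers, 12 of 12 measured, had a median difference of -0.03 and summed to between 11340 and 14568 in flox/flox glands and between 11648 and 14149 in flox/+ glands. Basal and myoepithelial markers, 8 of 8 measured, had a median of 0.12 and summed to between 8037 and 10943 in flox/flox glands and between 7951 and 9172 in flox/+ glands. The part of these cell types in the Klf4 values was not tested.

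Klf9, a target of glucocorticoid and thyroid hormone receptors that also works with the progesterone receptor in the uterus, had the widest spread among controls. Its intensity was 1270.1, 1237, 1042 and 981 in flox/flox replicates 1 to 4, against 659.6, 905, 795 and 1072 in flox/+ replicates 1 to 4. Controls differed by 0.69 on the log2 scale between flox/+ replicates 1 and 4, against 0.37 between the highest and lowest flox/flox glands, and flox/+ replicate 4 lay within the flox/flox range. The means were 1132 ± 143 in flox/flox glands and 858 ± 174 in flox/+ glands (SD, n = 4), a difference of 0.41 ± 0.14 (SE, 95% interval 0.10 to 0.72, limma adjusted p = 0.337). Without flox/+ replicate 1, the lowest control, the difference was 0.29 (limma adjusted p = 0.506, with 0.250 to 0.574 over the 19 alternatives).

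Klf6 is an early response gene of injured tissue that is also studied as a tumour suppressor. Its intensity was 840.0, 819, 666 and 699 in flox/flox replicates 1 to 4, against 545, 587, 712 and 587 in flox/+ replicates 1 to 4. Flox/flox replicates 1 and 2 lay above all controls, and replicates 3 and 4 lay below flox/+ replicate 3 but above the other controls. The means were 756 ± 86.3 in flox/flox glands and 608 ± 72.6 in flox/+ glands (SD, n = 4), a difference of 0.31 ± 0.10 (SE, 95% interval 0.08 to 0.53, limma adjusted p = 0.325). In both Klf4 and Klf6 the control nearest to the flox/flox glands was flox/+ replicate 3.

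**Figure D1:**
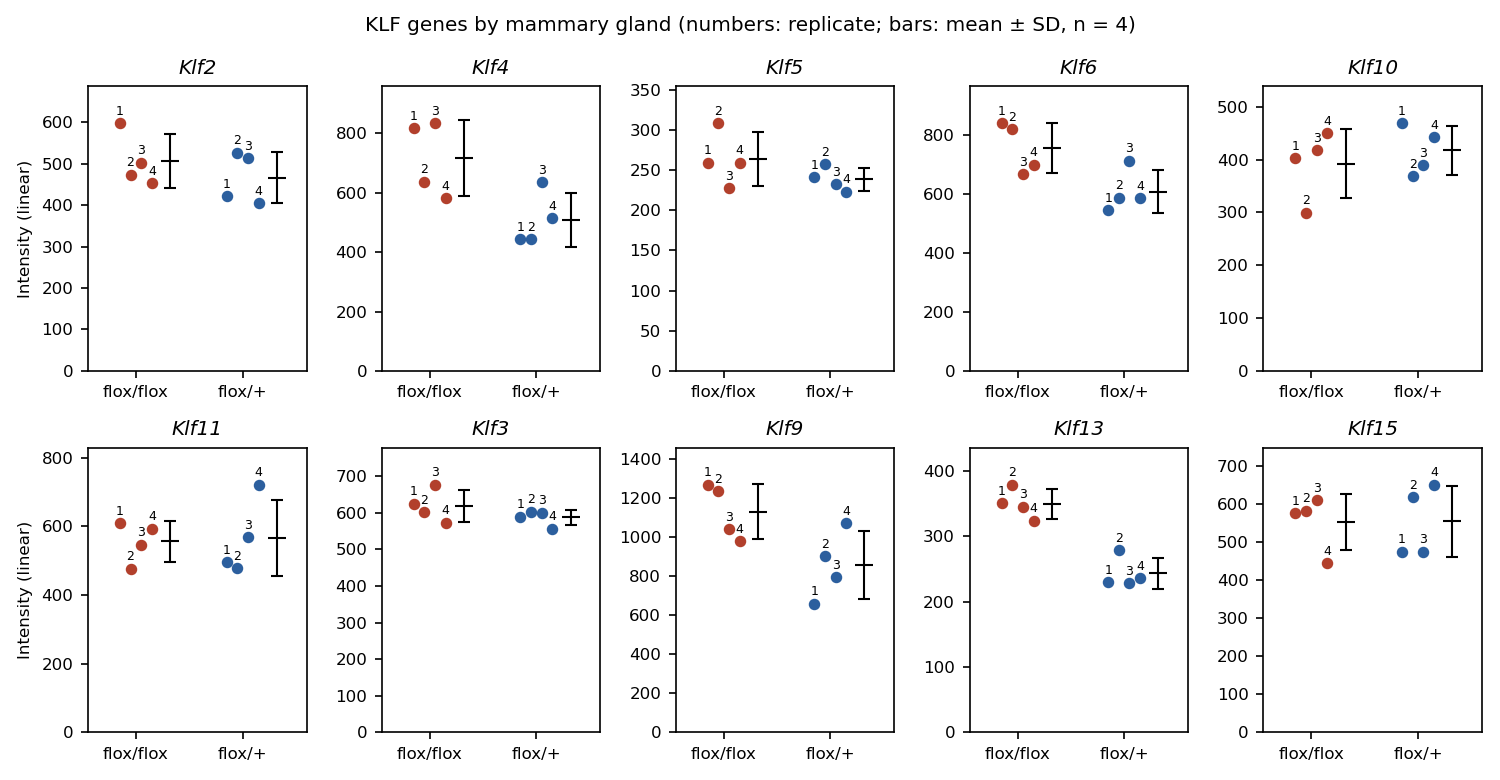
Normalized intensity on a linear scale from 0 (vertical) of each KLF member in every gland, flox/flox in red and flox/+ in blue, with replicate numbers beside the points and mean ± SD (n = 4) in black. Klf13 separates the genotypes, with flox/flox glands between 324 and 379 and flox/+ glands between 229 and 279; in the other 9 panels the ranges overlap.

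The other members of the epithelial, vascular and lymphoid roles showed small differences. Klf5, which maintains proliferating basal epithelial cells and acts early in fat cell differentiation, read 259, 309, 228 and 259.6 in flox/flox replicates 1 to 4, against 241, 257, 233 and 223 in flox/+ replicates 1 to 4. All but flox/flox replicate 3 lay above the controls, and the difference was 0.13 ± 0.09 (SE, 95% interval -0.07 to 0.33, limma adjusted p = 0.657). Without flox/flox replicate 3 it was 0.20 (limma adjusted p = 0.476, with 0.476 to 0.891 over the 19 alternatives), the one alternative in which Klf5 had an unadjusted p under 0.05, and without flox/flox replicate 2 it was 0.06. Klf2, which keeps naive T cells quiescent and responds to blood flow in endothelium, read 597, 473, 502 and 452 in flox/flox replicates 1 to 4, against 422, 526, 513 and 404 in flox/+ replicates 1 to 4. Flox/flox replicate 1 alone lay above the controls, and the difference was 0.12 ± 0.11 (SE, 95% interval -0.13 to 0.36, limma adjusted p = 0.765). Without flox/flox replicate 1 the difference of Klf2 was 0.04, without flox/+ replicate 1 it was 0.07 and without flox/+ replicate 4 it was 0.05, while leaving out flox/+ replicate 2 gave 0.18. Blood vessel markers, 14 of 14 measured, summed highest in the same gland, flox/flox replicate 1, at 10034, within a range of 7371 to 10034 in flox/flox glands and 7870 to 9103 in flox/+ glands. Klf2 was also highest among controls in flox/+ replicate 2, the gland with the highest lymphocyte markers, which summed to 6182 there. In flox/+ replicate 3, where those markers summed to 1734, Klf2 read nearly the same, 513. The part of vessel cells and lymphocytes in the Klf2 values was not tested. Reported KLF2 targets in these cells had a median of -0.09 over the 5 measured of 6, and the 2 with the smallest p were the anticoagulant receptor gene Thbd (-0.22 ± 0.11 SE, adjusted p = 0.526) and the integrin gene Itgb7 (0.19 ± 0.12, adjusted p = 0.630).

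Klf10 and Klf11, the TGF-beta-inducible early genes, which repress transcription through SIN3A, did not lie higher in flox/flox glands. Klf10 read 402, 299, 417 and 450.2 in flox/flox replicates 1 to 4, against 469, 369, 389 and 443 in flox/+ replicates 1 to 4. Its lowest gland was flox/flox replicate 2, its highest flox/+ replicate 1, and the difference was -0.09 ± 0.12 (SE, 95% interval -0.36 to 0.18, limma adjusted p = 0.835). With single glands left out the difference of Klf10 ran from -0.16 to 0.02, and was positive only without flox/flox replicate 2. Klf11 read 609, 476, 546 and 593 in flox/flox replicates 1 to 4, against 495, 479, 568 and 721 in flox/+ replicates 1 to 4, a difference of -0.01 ± 0.13 (SE, 95% interval -0.29 to 0.27, adjusted p = 0.990). Flox/+ replicate 4 was the highest gland for Klf11 and flox/flox replicate 2 the lowest, and leaving out each in turn gave differences of 0.11 and 0.06. TGF-beta-induced genes had a median of 0.06 over 11 measured of 13, and the gene with the smallest p was the matrix protein gene Tgfbi, at 0.32 ± 0.12 (adjusted p = 0.407), followed by Id3, an inhibitor of helix-loop-helix factors, at -0.23 ± 0.11 (adjusted p = 0.503).

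Klf3, a repressor that binds the corepressor CtBP, was the steadiest member, with an SD within genotypes of 0.08 on the log2 scale. It ranged from 572 to 676 in flox/flox glands and from 556 to 602 in flox/+ glands, a difference of 0.07 ± 0.07 (SE, 95% interval -0.08 to 0.23, limma adjusted p = 0.769), and of 0.03 without flox/flox replicate 3. Klf15, which switches on amino acid breakdown and glucose production and is induced by glucocorticoids, read 576, 582, 611 and 445 in flox/flox replicates 1 to 4, against 475, 617, 475 and 651 in flox/+ replicates 1 to 4. The range of the controls took in 3 of the 4 flox/flox values, and the difference was 0.00 ± 0.13 (SE, 95% interval -0.28 to 0.29, adjusted p = 0.998), with -0.07 to 0.10 when single glands were left out. Klf9 and Klf15 were alike in flox/+ glands, where both were lower in replicates 1 and 3 and higher in replicates 2 and 4. In flox/flox glands both were lowest in replicate 4, while Klf9 was highest in replicate 1 and Klf15 in replicate 3. Amino acid breakdown genes, all 14 of 14 measured, had a median of -0.02, with Gpt2, a mitochondrial alanine aminotransferase, at 731 ± 76.2 in flox/flox glands and 1058 ± 216 in flox/+ glands (-0.51 ± 0.13 SE, adjusted p = 0.240). White adipocyte markers had a median of -0.01 over 10 measured of 11 and summed to between 60049 and 68525 in flox/flox glands and between 60087 and 69127 in flox/+ glands.

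**Figure D2:**
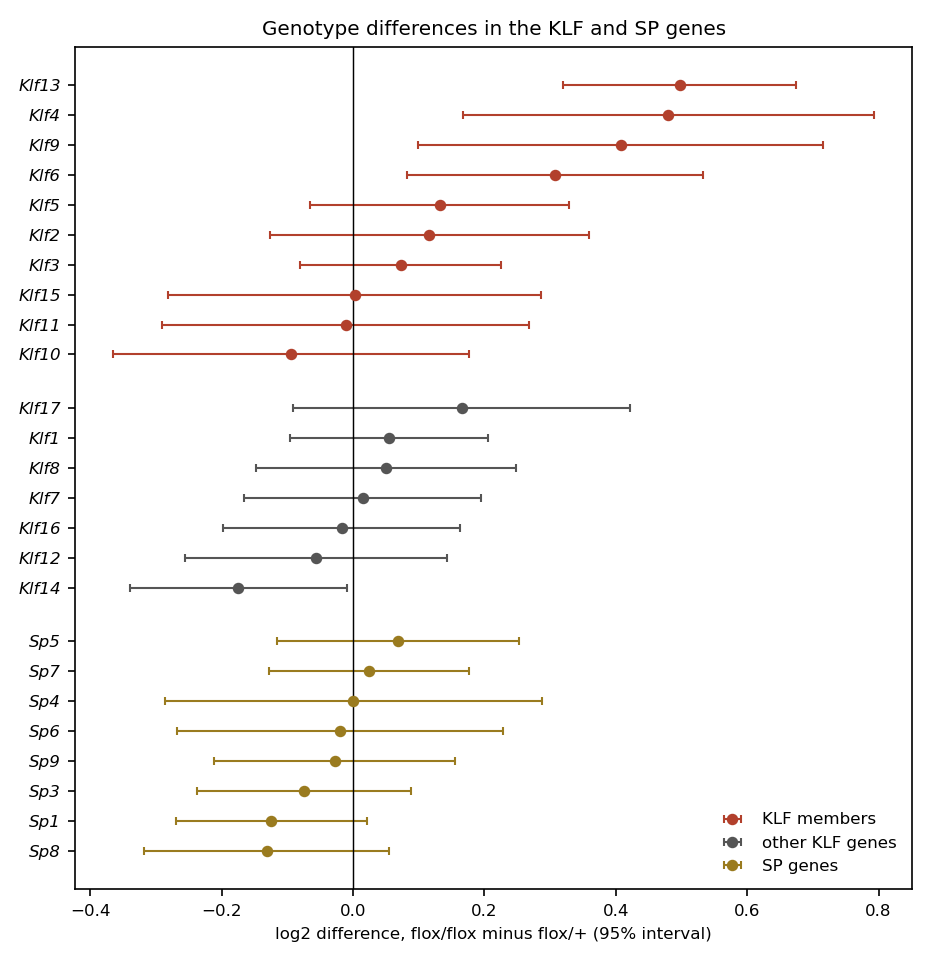
Log2 difference (flox/flox minus flox/+, horizontal) with its 95% interval from limma for the 10 KLF members in red, the other KLF genes in grey and the SP genes in ochre. The intervals of Klf13, Klf4, Klf9 and Klf6 lie above 0, that of Klf14 lies below 0, and all others include 0.

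Among the genes of the family outside the 10 members and the SP factors, differences were small. At an unadjusted p under 0.05, 4.8% of all genes lay higher and 5.46% lay lower, so lists this short would hold few such genes. The other 7 KLF genes had a median difference of 0.01, 4 positive and 3 negative. Klf14, an imprinted gene known in humans as a regulator of gene expression in fat, was the one with an unadjusted p under 0.05. It read 1079, 902, 1078 and 1062 in flox/flox replicates 1 to 4, against 1112, 1218, 1166 and 1154 in flox/+ replicates 1 to 4. All flox/flox values lay below the controls, and the difference was -0.17 ± 0.07 (SE, limma adjusted p = 0.467). The SP genes, 8 of 9 measured, had a median of -0.02 and differences from -0.13 to 0.07, with none at an unadjusted p under 0.05, Sp1 at -0.12 ± 0.07 (adjusted p = 0.557) and Sp8 at -0.13 ± 0.08 (adjusted p = 0.636). Partners and regulators of KLF proteins, such as the SIN3 and CtBP corepressors, histone deacetylases and the MEF2 factors upstream of Klf2 and Klf4, had a median of 0.00 over 19 of 19 measured. None of these had an unadjusted p under 0.05, and the smallest p values belonged to the deacetylase gene Hdac1 (-0.13 ± 0.06, adjusted p = 0.524) and to Mef2c (-0.21 ± 0.11, adjusted p = 0.546).

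Glucocorticoid-induced genes and clock genes, which share inducers with several KLF members, had larger medians than the 0.12 of the members. Of the 14 measured glucocorticoid-induced genes 4 lay higher at an unadjusted p under 0.05, against 4.8% of all genes, and 1 lay lower, against 5.46%, with a median of 0.29. Fkbp5, a chaperone that damps the glucocorticoid receptor, read 734 ± 148 in flox/flox glands and 359 ± 105 in flox/+ glands (SD, n = 4; 1.02 ± 0.19 SE, limma adjusted p = 0.122). The transcription factor gene Zbtb16 lay higher by 0.96 ± 0.20 (adjusted p = 0.141), the anti-inflammatory gene Tsc22d3 by 0.82 ± 0.18 (adjusted p = 0.180) and Cebpd, a factor of early fat cell differentiation, by 0.39 ± 0.11 (adjusted p = 0.265). Angptl4, an inhibitor of lipoprotein lipase, was at -0.50 ± 0.12 (adjusted p = 0.192). None of these passed over all genes tested.

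Of the 16 measured clock genes 7 lay higher at an unadjusted p under 0.05, against 4.8% of all genes, with a median of 0.34. Lower at that level, against 5.46% of all genes, was 1 gene, the activator gene Arntl (-0.57 ± 0.14 SE, limma adjusted p = 0.221). The largest difference was that of the repressor gene Ciart, at 325 ± 88.5 in flox/flox glands and 106 ± 35.8 in flox/+ glands (SD, n = 4; 1.51 ± 0.24 SE, adjusted p = 0.0828). Per2, another repressor, was at 0.71 ± 0.14 (adjusted p = 0.123), and the output factors Hlf and Dbp were at 0.45 ± 0.10 (adjusted p = 0.177) and 0.36 ± 0.09 (adjusted p = 0.220). The summed clock list lay between 9184 and 10846 in flox/flox glands and between 8417 and 8941 in flox/+ glands. The time of day at which glands were taken is not given in the labels, and its part in these values was not tested.

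**Figure D3:**
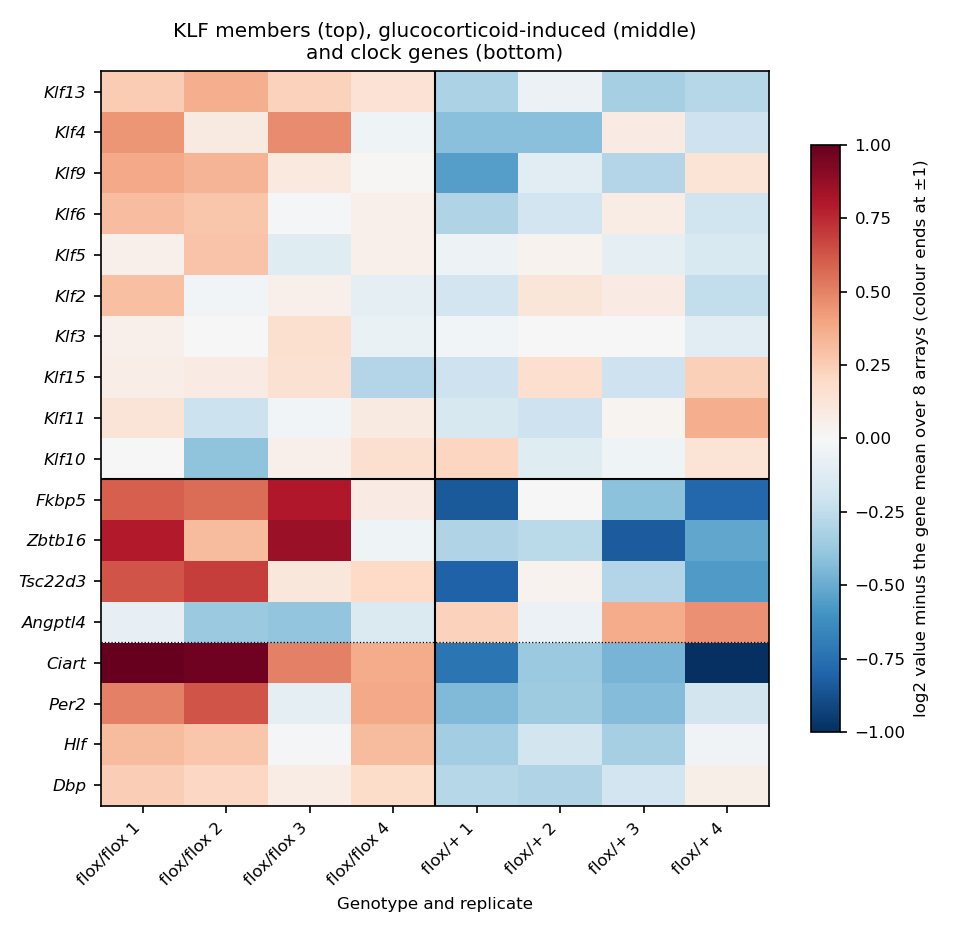
Log2 value of each gene in each gland minus the mean of that gene over the 8 arrays (colour, from -1 in blue to 1 in red). Flox/flox glands are left of the black line and flox/+ glands right of it. KLF members are on top, followed by the glucocorticoid-induced genes Fkbp5, Zbtb16, Tsc22d3 and Angptl4 and the clock genes Ciart, Per2, Hlf and Dbp. Cebpd and the clock gene Arntl, which lay lower in flox/flox glands, are named in the text but not drawn. Flox/flox replicate 1 is above the mean in all 10 members, and flox/+ replicate 1 is above it in 1, Klf10.

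Read by gland, all 10 members lay above their own mean over the 8 arrays in flox/flox replicate 1, 7 did in each of replicates 2 and 3, and 6 did in replicate 4. In the controls 1 member did in flox/+ replicate 1, Klf10, and 4 did in each of the other 3. Each mean takes in both genotypes, so members that lay higher in flox/flox glands raise the counts there. The share of all genes above their mean in each gland was not counted. Flox/flox replicate 1 was the highest gland for 3 members, Klf2, Klf6 and Klf9, and also had the highest summed glucocorticoid-induced genes, 17849, against 11930 to 13210 in the other flox/flox glands and 10420 to 12932 in the controls. Bright genes weigh most in this sum. In that gland Pdk4 read 4505, against 1566 to 2245 in the other flox/flox glands, and Dusp1 read 1691, against 701 to 957. By contrast, Fkbp5 and Zbtb16 were highest in flox/flox replicate 3 and Tsc22d3 in flox/flox replicate 2. Without flox/flox replicate 1 the 4 members named above kept an unadjusted p under 0.05, with differences of 0.50 for Klf13, 0.41 for Klf4, 0.35 for Klf9 and 0.26 for Klf6.

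Immediate early genes, induced by the same kinds of stimuli as Klf2, Klf4, Klf6 and Klf10 and raised by handling of tissue, had a median of 0.05 over 19 measured of 20. The one with an unadjusted p under 0.05 was Fosb, a partner of JUN, against 4.8% of all genes higher and 5.46% lower. Fosb read 137 ± 13.2 in flox/flox glands and 162 ± 5.48 in flox/+ glands (-0.22 ± 0.07 SE, limma adjusted p = 0.330). Summed, the list lay between 5622 and 6668 in flox/flox glands and between 4580 and 6096 in flox/+ glands. Regulators of fat cell differentiation had a median of 0.07 over 11 of 11 measured, with Cebpb, an early activator, at 0.35 ± 0.10 (adjusted p = 0.282) and Gata3, which is also a luminal epithelial factor, at -0.48 ± 0.14 (adjusted p = 0.259). Fibroblast markers had a median of -0.27 over 9 of 9 measured, 3 positive and 6 negative. They summed to between 33100 and 39187 in flox/flox glands and between 36171 and 46879 in flox/+ glands. At an unadjusted p under 0.05 2 of the 9 lay lower, against 5.46% of all genes. These were the collagen genes Col3a1 at -0.27 ± 0.09 (adjusted p = 0.309) and Col1a1 at -0.27 ± 0.12 (adjusted p = 0.470). The 3 positive ones were Dpt (0.12), Pdgfra (0.02) and Dcn (0.00). Macrophage markers had a median of -0.01 over 11 measured of 12, 4 positive and 7 negative. The 1 with an unadjusted p under 0.05 was the Fc receptor gene Fcgr1, at -0.37 ± 0.12 (adjusted p = 0.324), against 5.46% of all genes lower. The 4 positive ones were Adgre1 (0.25), Mrc1 (0.19), Cd14 (0.16) and Cd163 (0.14). Skeletal muscle markers had a median of -0.11 over 7 of 7 measured, with the troponin gene Tnnt3 at -0.23 ± 0.09 (adjusted p = 0.418). Actin of skeletal muscle, Acta1, was at -0.16 ± 0.09 (adjusted p = 0.596). The median of the keratinocyte list was -0.11.

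The lymphocyte list had a median of -0.26, with 2 of 16 markers positive, and this rested on flox/+ replicate 2: without that gland, an alternative added after the data were seen, the median was 0.04 and 10 of 16 were positive.

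In the remaining marker lists the genes with the smallest p also missed the adjusted threshold. Among vessel markers, whose median was -0.02, the tight junction gene Cldn5 was at -0.56 ± 0.18 (SE, limma adjusted p = 0.311) and the ETS factor gene Erg at 0.20 ± 0.08 (adjusted p = 0.450). Among lymphocyte markers the B cell kinase gene Blk was at -0.26 ± 0.12 (adjusted p = 0.498) and the T cell receptor chain gene Cd3d at -0.25 ± 0.12 (adjusted p = 0.516). In the epithelial lists the luminal factors Ehf and Elf3 were at 0.21 ± 0.11 (adjusted p = 0.564) and -0.16 ± 0.12 (adjusted p = 0.669), and the basal factor Trp63 and smooth muscle myosin Myh11 at -0.19 ± 0.10 (adjusted p = 0.560) and 0.20 ± 0.11 (adjusted p = 0.577). The adipocyte genes Adipoq, for adiponectin, and Car3, for a carbonic anhydrase, were at -0.12 ± 0.07 (adjusted p = 0.622) and -0.08 ± 0.06 (adjusted p = 0.712).

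**Figure D4:**
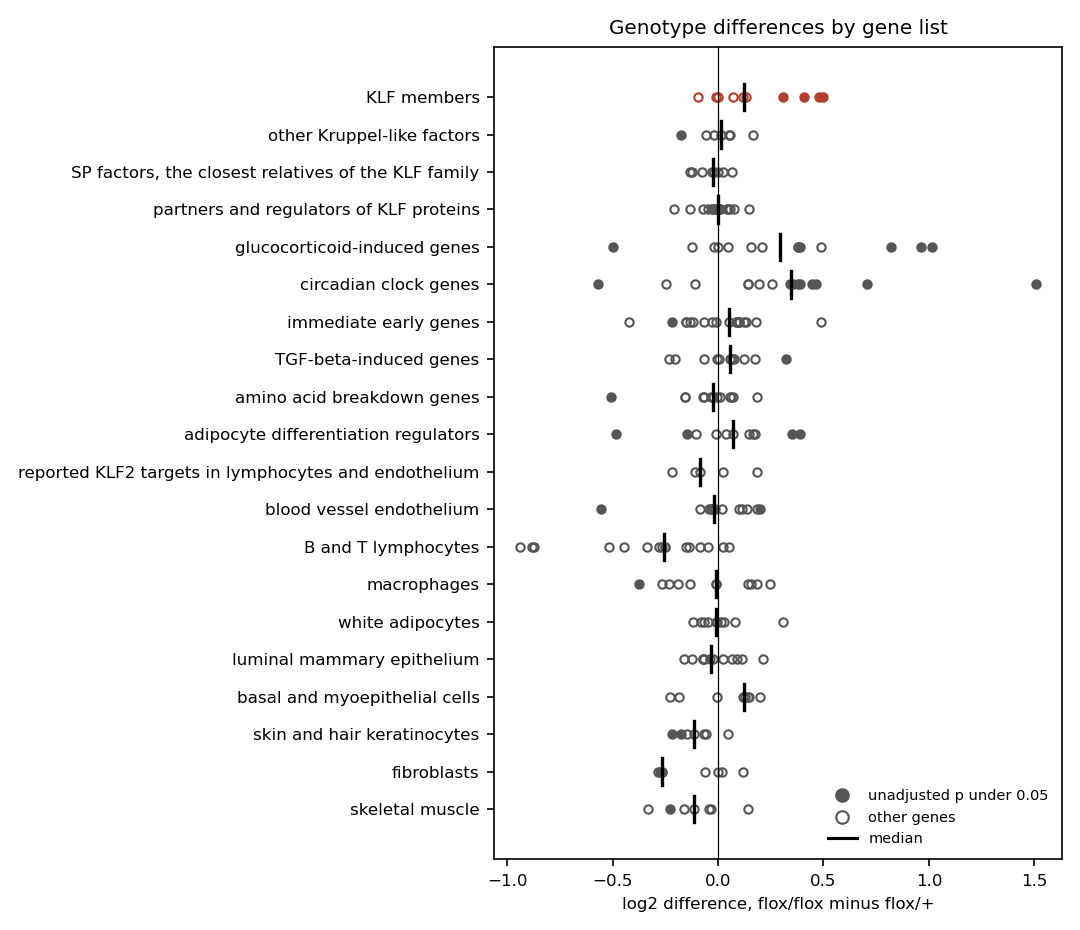
Log2 difference (flox/flox minus flox/+, horizontal) of every measured gene of the KLF members (top, red) and of each other list (grey), with filled points for an unadjusted limma p under 0.05 and a black bar at the median. The medians are 0.12 for the KLF members, 0.29 for glucocorticoid-induced genes, 0.34 for clock genes and -0.02 for SP factors.

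For the 3 members with the largest differences, the genes most alike over the 8 arrays were sought after each genotype mean was taken off, among the 14791 genes with a mean intensity of at least 100. For Klf13 they were Tmem243 (Pearson r = 0.98), Ddx31 (0.97) and B3gntl1 (0.97), for Klf4 Igsf21 (0.98), Aoah (0.98) and Ptf1a (0.98), and for Klf9 Dennd5b (0.99), B230354K17Rik (0.97) and Ogt (0.97). These are the highest of very many values over 8 arrays that share normalization and are given as a description. Of these 9 genes none passed the genotype test, with adjusted p from 0.287 for Igsf21 to 0.997 for B3gntl1.

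Sox9 itself averaged 323 ± 35.7 in flox/flox glands and 409.9 ± 35.1 in flox/+ glands (SD, n = 4), lower in all 4 flox/flox glands (-0.33 ± 0.09 SE, limma adjusted p = 0.256). Where the floxed segment of Sox9 lies relative to the probes is not stated in the labels. The deposited median intensity of an array lay between 159 and 178.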

How the data were processed

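RNA of 8 mammary glands, 4 flox/flox and 4 flox/+, was measured on separate arrays. Each deposited value is a linear intensity of a probe set on an array. The authors made them with PLIER in version 1.0 of the Affymetrix Expression Console, according to the submitters' processing notes. How background was corrected and arrays were normalized is not given in the sources used here, and no detection calls were used. Of 35557 probe sets 21789 had 1 gene symbol in the platform annotation, 1621 had several and 12147 none; the first kind gave 19938 genes, the brightest probe set standing for a gene. All 8 value columns were matched to samples, with 0 unmatched.

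Values were offset by 16, taken to log2 and quantile normalized. A fold is on this scale with the offset in, which understates the change of dim genes. The comparison of genotypes used lmFit and eBayes of limma 3.58.1 (R 4.3.3), with Benjamini-Hochberg adjustment over all genes and a threshold of 0.05. The fit was also run on simulated arrays with known differences, and the mean of its estimates was checked against them. How many of those differences passed the threshold is not given here. P-values set the difference between genotypes against the spread between glands within genotypes, 4 glands each. That spread is pooled over both genotypes and moderated by eBayes over all genes.

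The members and all gene lists were chosen with earlier results of these data known. Besides the members the text names, of each list, up to 4 genes with an unadjusted p under 0.05 and no overlap between genotypes, or otherwise the 2 with the smallest p, as well as the genes behind small counts. The alternatives were offsets of 1 and 64, deposited values without quantile normalization, median centring, leaving out the dimmest genes (the lowest 33% by mean), the mean over probe sets, all probe sets, trend and robust options, array weights, the replicate block, a lymphocyte score as covariate and each array left out. Promoter sequences are from RefSeq, assembly GRCm38.p6. No 2 arrays held identical values.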

Additional observations from a re-analysis of the deposited data

Results flagged for a closer look

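Klf13 in flox/+ replicate 2 read 279, apart from the 229 to 236 of the other controls; this is also the gland with the highest lymphocyte markers, whose part in the value was not tested. Of the other named genes, Klf14 read 902 in flox/flox replicate 2 (1062 to 1079 in the other flox/flox glands), Mef2c 233 in flox/flox replicate 3 (285 to 292), Hlf 469 in flox/flox replicate 3 (577 to 594) and Elf3, an epithelial ETS factor, 170.3 in flox/flox replicate 4 (155 to 157). Acta1, skeletal muscle actin, read 457 in flox/+ replicate 4 (577 to 594 in the other controls). In each case the gap to the nearest gland, as a share of the range of the group, exceeded Dixon's 95% critical value. Of 116 groups of 4 glands examined 6 had such a value, and chance gives about 5%.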

How the results depend on the processing

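Klf13, Klf4, Klf9 and Klf6 stayed higher in flox/flox glands with an unadjusted limma p under 0.05 in all 19 alternatives, and the count of members at that level was 4 or 5. The median difference of the 10 members ran from 0.10 to 0.17. Passing the adjusted threshold was less stable. The number of members past it was 0 and became 1, Klf13, with an offset of 64 (adjusted p = 0.0499), with trend and robust options (0.0402) and with the lymphocyte score as covariate (0.0450); with arrays left out in turn it was 0 to 1, the 1 without flox/+ replicate 2. The lymphocyte score and the removal of flox/+ replicate 2 bear on the same gland and are not separate support. The cause of these changes was not tested. The background count of 8 genes became 18 with median centring, 4 with an offset of 1, 19 with an offset of 64, 3 without the dimmest 33% of genes, 1 with all probe sets tested and 17 with trend and robust options, and 2 to 19 with arrays left out in turn: 4 when replicate 1 of either genotype was left out, 2 when replicate 4 of either was, and 19 without flox/flox replicate 3. Klf10 changed sign in 1 alternative, Klf11 in 5 and Klf15 in 5, never past a threshold. Same-numbered glands had deviations that correlated at -0.20, 0.06, 0.21 and -0.09, so the numbers were not taken to pair glands, and 3 of 8 glands correlated best with their own number; with the replicate block 8 genes and 0 members passed, and the difference of Klf13 had an adjusted p of 0.0728. Without detection calls, dim values cannot be told from background, and 4 glands per genotype leave 95% intervals such as -0.28 to 0.29 for Klf15.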
